A study of Mus musculus with 11 samples.

Results

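The 9 genes described here are the receptors for glucocorticoids and mineralocorticoids, Nr3c1 and Nr3c2, and 7 genes known to respond to corticosteroids: Fkbp5, Sgk1, Zbtb16, Depp1, Tsc22d3, Dusp1 and Klf9. They were taken by symbol from a table of 54513 genes, and all 9 passed the filter on low counts that left 19267 genes. The set was chosen by measured values, because Zbtb16 and Depp1 stood among the largest increases in knockout mice after colitis, so the comparison of knockout and wild type after colitis is given for the 9 genes as a description, with no test. RNA came from colonic epithelial cells depleted of lymphocytes on Percoll, a density medium. The mice were double knockouts (DKO) for the microRNA clusters miR-181a1-b1 and miR-181a2-b2, or wild type (WT). Some were given 2% dextran sulphate sodium (DSS), an agent that wounds the lining of the colon, over 7 days and were left to recover over the following 2 days. The others were at baseline, without DSS. The groups were DSS DKO (n = 3), DSS WT (n = 3), baseline DKO (n = 3) and baseline WT (n = 2). The labels give no strain, age or sex, no extent of the deletion beyond the cluster names, and no statement that each library is 1 mouse. The sample titles call the libraries of each group biological replicates. The spread that p-values rest on is therefore that between libraries, and whether a library pools mice is not stated.

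Corticosteroid hormones cross the cell membrane and bind receptors that wait in the cytoplasm in a complex of HSP90, its co-chaperones and an immunophilin such as FKBP4 or FKBP5. The hormone-bound receptor enters the nucleus, where it binds DNA as a dimer and raises or lowers the transcription of its targets. FKBP5 lowers the affinity of the receptor for hormone, and since its own gene is a target it closes a negative feedback loop. The distal colon is a mineralocorticoid tissue in which aldosterone drives sodium uptake, and HSD11B2 protects the mineralocorticoid receptor there by inactivating glucocorticoids. The gut epithelium also makes glucocorticoids of its own.

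Libraries held 41631951 to 52761900 counts. Values are given as CPM, counts scaled to a common library size, after TMM scaling, a correction for differences in library composition. The 6 epithelial markers summed to 7980 to 8865 CPM in DSS DKO, 9453 to 10294 CPM in DSS WT, 10796 to 11622 CPM in baseline DKO and 9015 to 10036 CPM in baseline WT. Some markers of other cells moved with the groups. The 6 neutrophil markers summed to 154 to 214 CPM in DSS DKO, 48.2 to 56.4 CPM in DSS WT, 30.5 to 38.8 CPM in baseline DKO and 31.4 to 34.9 CPM in baseline WT, and 4 of the 6 passed the test as higher in DSS DKO than in DSS WT. The 9 markers of T, NKT and innate lymphoid cells summed to 126 to 141 CPM in DSS DKO and 180 to 203 CPM in DSS WT, and 5 of the 9 passed as lower in DSS DKO; they summed to 47.8 to 58.2 CPM in baseline DKO and 48.6 to 69.9 CPM in baseline WT. Of the 6, Ly6g made up most of the sum (113 to 144 CPM in DSS DKO and 25.4 to 39.0 CPM in DSS WT), and Csf3r (0.658 to 2.07 CPM in DSS DKO and 0.823 to 2.17 CPM in DSS WT) and Cxcr2 did not pass. Of 7 fibroblast and smooth muscle markers, Dcn, Pdgfra and Col3a1 were higher in DSS DKO. Dcn had 12.6 to 57.5 CPM in DSS DKO and 6.92 to 10.3 CPM in DSS WT (log2 2.22 ± 0.47, adjusted p = 0.0181), and Pdgfra 1.28 to 8.71 CPM in DSS DKO and 0.149 to 0.901 CPM in DSS WT (3.39 ± 0.78, adjusted p = 0.0221), neither with overlap. The sum of the 7, 144 to 258 CPM in DSS DKO and 177 to 209 CPM in DSS WT, was mostly Col1a1, which did not pass. Of 4 mast cell markers, Mcpt1 and Mcpt2 were lower in DSS DKO; the sum, mostly Kit in DSS DKO, was 77.1 to 114 CPM in DSS DKO and 90.0 to 228 CPM in DSS WT. None of these markers was at 0 in all libraries of a group. Every DSS library had a female pattern of sex-linked genes and every baseline library a male one (Xist 633 to 906 CPM after DSS and 6.75 to 14.5 CPM at baseline), so DSS and sex cannot be told apart. An 18S ribosomal gene model, Rn18s-rs5, took 23.0% and 8.46% of the counts in baseline DKO replicates 1 and 2 and 0.128% to 1.59% in the other 9 libraries.

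The deleted clusters encode miR-181a and miR-181b, which silence messenger RNAs by pairing their seed, bases 2 to 8, with sites in 3' UTRs. The mature strands are shown because the seed is what a target site is matched to; the seed is in capitals. The strands of Mir181c and Mir181d, which the labels do not name among the deleted genes, carry the same seed, ACAUUCA. The sequences are RefSeq's for GRCm38.p6.
miR-181a-5p, from Mir181a-1 at chr1:137966468-137966490 and Mir181a-2 at chr2:38852741-38852763: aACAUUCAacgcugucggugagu
miR-181b-5p, from Mir181b-1 at chr1:137966650-137966673 and Mir181b-2 at chr2:38853845-38853868: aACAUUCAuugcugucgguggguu
miR-181c-5p, from Mir181c at chr8:84178924-84178945: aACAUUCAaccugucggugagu
miR-181d-5p, from Mir181d at chr8:84178759-84178781: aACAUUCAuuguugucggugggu
In the annotation GENCODE M21, the longest 3' UTR per gene was searched on the sense strand for the letters TGAATGT. It was also searched for GAATGTA. The longer TGAATGTA contains both. A match was found in 1 of the 9 genes, Nr3c1, which held 3 copies of TGAATGT. Zbtb16, Depp1, Fkbp5, Sgk1, Tsc22d3, Klf9, Dusp1 and Nr3c2 held none. Among all 20209 genes whose 3' UTR had 100 bases or more, 22.8% held one. A match is a string of letters and not a measured site.

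Receptor dimers of this family are known to bind a palindrome with the letters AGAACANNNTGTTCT. RefSeq promoter windows, from 250 bases before to 50 bases after an annotated start, were found for 7 of the 9 genes (14 windows, 6 of them of Sgk1 and 3 of Tsc22d3). Zbtb16 and Nr3c1 were not matched. The full palindrome occurred in 1 of the 14 windows, that of an Sgk1 start, and in 3 of all 32851 windows (0.00913%). That window is printed because Sgk1 is among the genes that were highest in DSS DKO, with the palindrome in capitals. It lies on the plus strand of GRCm38.p6, and the palindrome runs from base 21993701 to base 21993715, its first base lying 189 bases before the start.
Sgk1 promoter, chr10:21993640-21993939: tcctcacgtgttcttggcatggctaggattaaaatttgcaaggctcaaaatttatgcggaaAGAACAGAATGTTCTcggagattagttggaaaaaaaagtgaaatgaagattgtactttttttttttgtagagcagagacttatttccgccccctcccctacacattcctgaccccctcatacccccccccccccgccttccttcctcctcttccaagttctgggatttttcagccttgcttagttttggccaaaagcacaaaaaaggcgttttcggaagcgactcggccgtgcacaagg
The single arm AGAACA, searched on both strands and also contained in the palindrome, occurred in 6233 of all 32851 windows and in 4 of the 14, of Sgk1 and Tsc22d3. The absence of these letters elsewhere says only that they are not in these windows.

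The glucocorticoid receptor gene Nr3c1 was higher after DSS in both genotypes, and the mineralocorticoid receptor gene Nr3c2 was lower. Neither differed detectably between DKO and WT at baseline. Nr3c1 (chromosome 18, bases 39410545 to 39519421, minus strand, GRCm38) had 176, 171 and 184 CPM in DSS DKO and 162, 180.4 and 184 CPM in DSS WT. It had 114, 94.6 and 87.7 CPM in baseline DKO and 101 and 91.5 CPM in baseline WT. Every DSS library lay above every baseline library, while the genotypes overlapped within each treatment. The log2 fold change of DSS against baseline was 0.84 ± 0.11 in DKO (SE, adjusted p = 0.000584) and 0.87 ± 0.13 in WT (adjusted p = 0.000838), both by edgeR's quasi-likelihood test over all 19267 genes.

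Nr3c2 (chromosome 8, bases 76899442 to 77245012, plus strand) had 118, 112 and 109 CPM in DSS DKO and 117, 132 and 117 CPM in DSS WT. It had 174, 172 and 131 CPM in baseline DKO and 165 and 164 CPM in baseline WT. Within each genotype every DSS library lay below every baseline library, and at each treatment the genotypes overlapped. The log2 fold change of DSS against baseline was -0.49 ± 0.12 in DKO (adjusted p = 0.0122) and -0.44 ± 0.13 in WT (adjusted p = 0.0249), by the same test. The DKO call was lost without baseline DKO replicate 2 (adjusted p = 0.0541), and the WT call without baseline WT replicate 1 (0.108) or 2 (0.0919) or DSS WT replicate 1 (0.0509) or 3 (0.0775).

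Per kilobase of annotated exons, which allows levels of different genes to be compared, the order of the receptors differed between treatments. The ratio of Nr3c1 to Nr3c2 in CPM per kb was 1.25, 1.28 and 1.42 in DSS DKO and 1.17, 1.15 and 1.33 in DSS WT. It was 0.553, 0.464 and 0.564 in baseline DKO and 0.514 and 0.470 in baseline WT. Nr3c1 was thus the higher of the pair in all 6 DSS libraries and the lower in all 5 baseline libraries, and the genotypes overlapped within each treatment. In bulk RNA, fewer cells of a type and less RNA per cell cannot be told apart.

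**Figure D1:**
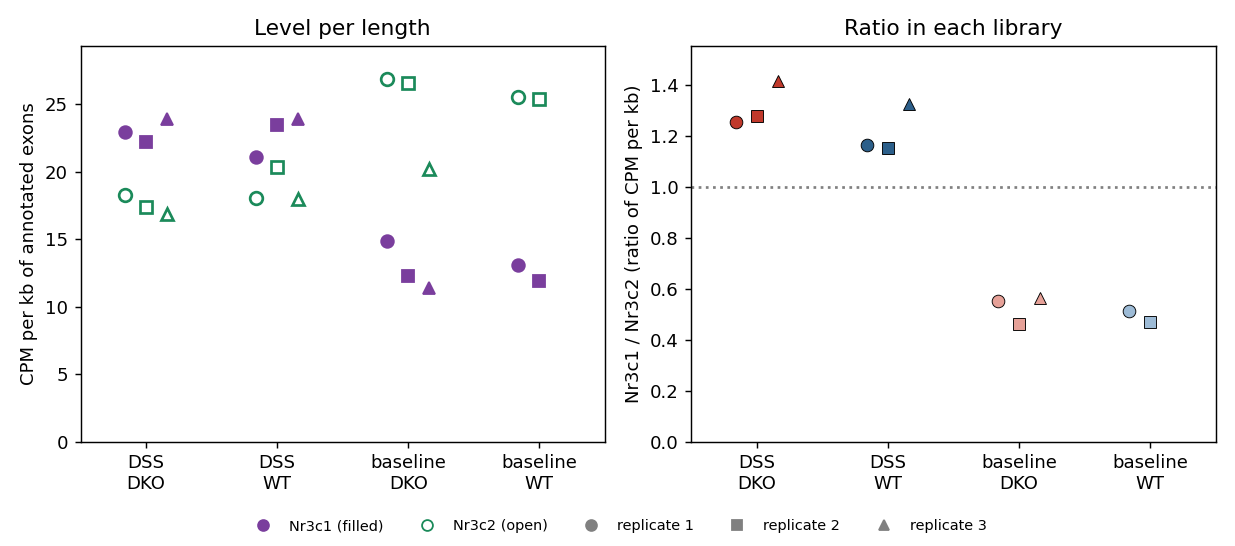
Left, level of Nr3c1 (filled) and Nr3c2 (open) in CPM per kb of annotated exons in each library; right, their ratio, with a dotted line at 1. Group means were 23.0 (DSS DKO), 22.8 (DSS WT), 12.9 (baseline DKO) and 12.5 (baseline WT) CPM per kb for Nr3c1, and 17.5, 18.8, 24.6 and 25.4 CPM per kb in the same groups for Nr3c2.

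Of the responsive genes, Fkbp5, Sgk1, Zbtb16 and Depp1 had their highest values in the 3 DSS DKO libraries, with no overlap with any other group. Fkbp5 (chromosome 17, bases 28399094 to 28517527, minus strand), the immunophilin of the feedback loop, had 438, 670 and 920 CPM in DSS DKO and 180, 185 and 200 CPM in DSS WT. It had 111, 107 and 92.1 CPM in baseline DKO and 80.2 and 93.5 CPM in baseline WT. The gap between the lowest and highest DSS DKO libraries was wider than the whole range of the other 8. The mean was 3.59-fold higher in DSS DKO than in DSS WT (log2 fold change 1.84 ± 0.21, not tested).

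Sgk1 (chromosome 10, bases 21882184 to 21999903, plus strand) encodes a kinase that keeps the epithelial sodium channel at the cell surface. It had 292, 431 and 633 CPM in DSS DKO and 179, 182 and 188 CPM in DSS WT. At baseline it had 88.8, 144 and 116 CPM in DKO and 80.7 and 98.6 CPM in WT. The mean was 2.47-fold higher in DSS DKO than in DSS WT (log2 1.31 ± 0.25, not tested), and the 3 DSS WT libraries lay close together. Over the 11 libraries Fkbp5 was the tested gene whose log2 CPM was most like that of Sgk1 (Pearson r 0.977), a description over libraries that fall into 4 groups.

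Zbtb16 (chromosome 9, bases 48654297 to 48836222, minus strand) encodes PLZF, a zinc finger repressor that is strongly induced by glucocorticoids in many cells and also marks NKT and innate lymphoid cells. It had 10.3, 34.9 and 45.7 CPM in DSS DKO and 2.29, 1.25 and 1.17 CPM in DSS WT. At baseline it had 2.29, 3.20 and 2.76 CPM in DKO and 3.90 and 1.57 CPM in WT. The gene was at a few CPM in 3 of the 4 groups. Its fold change after DSS, 19.3-fold (log2 4.27 ± 0.59, not tested), ranked 52nd of 19267 genes from the largest increase to the largest decrease. The summed T, NKT and innate lymphoid markers were lower in DSS DKO than in DSS WT, as given above, and their part in the Zbtb16 value was not tested.

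Depp1 (chromosome 6, bases 116650609 to 116652794, plus strand), named for its induction by progesterone in the human decidua and known as a target of FOXO factors, had 7.88, 24.9 and 33.4 CPM in DSS DKO and 2.72, 3.88 and 2.97 CPM in DSS WT. At baseline it had 1.39, 0.823 and 1.79 CPM in DKO and 3.25 and 2.47 CPM in WT. Every DKO library lay above every WT library after DSS and below every WT library at baseline. The fold change after DSS was 6.90-fold (log2 2.79 ± 0.47, not tested), 151st of 19267 from the largest increase to the largest decrease.

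These 4 genes also varied together among the DSS DKO libraries, in which replicate 1 was the lowest and replicate 3 the highest for each. The highest value was 4.44 times the lowest for Zbtb16, 4.24 times for Depp1, 2.16 times for Sgk1 and 2.10 times for Fkbp5. Dusp1, Klf9 and Nr3c2 had the opposite order in the same libraries, by 1.47, 1.14 and 1.08 times. The sum of the 6 epithelial markers was 8865, 8246 and 7980 CPM in DSS DKO replicates 1, 2 and 3, and the sum of the 7 fibroblast and smooth muscle markers 144, 188 and 258 CPM. Col1a1 made up most of that sum, with 118, 111 and 167 CPM. The stromal marker Dcn had 12.6, 47.8 and 57.5 CPM and Pdgfra 1.28, 5.12 and 8.71 CPM. Both were lowest in replicate 1 and highest in replicate 3, as the 4 genes were. Col3a1 and Acta2 had that order too. Des had the opposite order, at 0.648, 0.567 and 0.408 CPM, and Myh11 was lowest in replicate 2, as Col1a1 was. The part of these differences between libraries in the 4 genes was not tested.

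**Figure D2:**
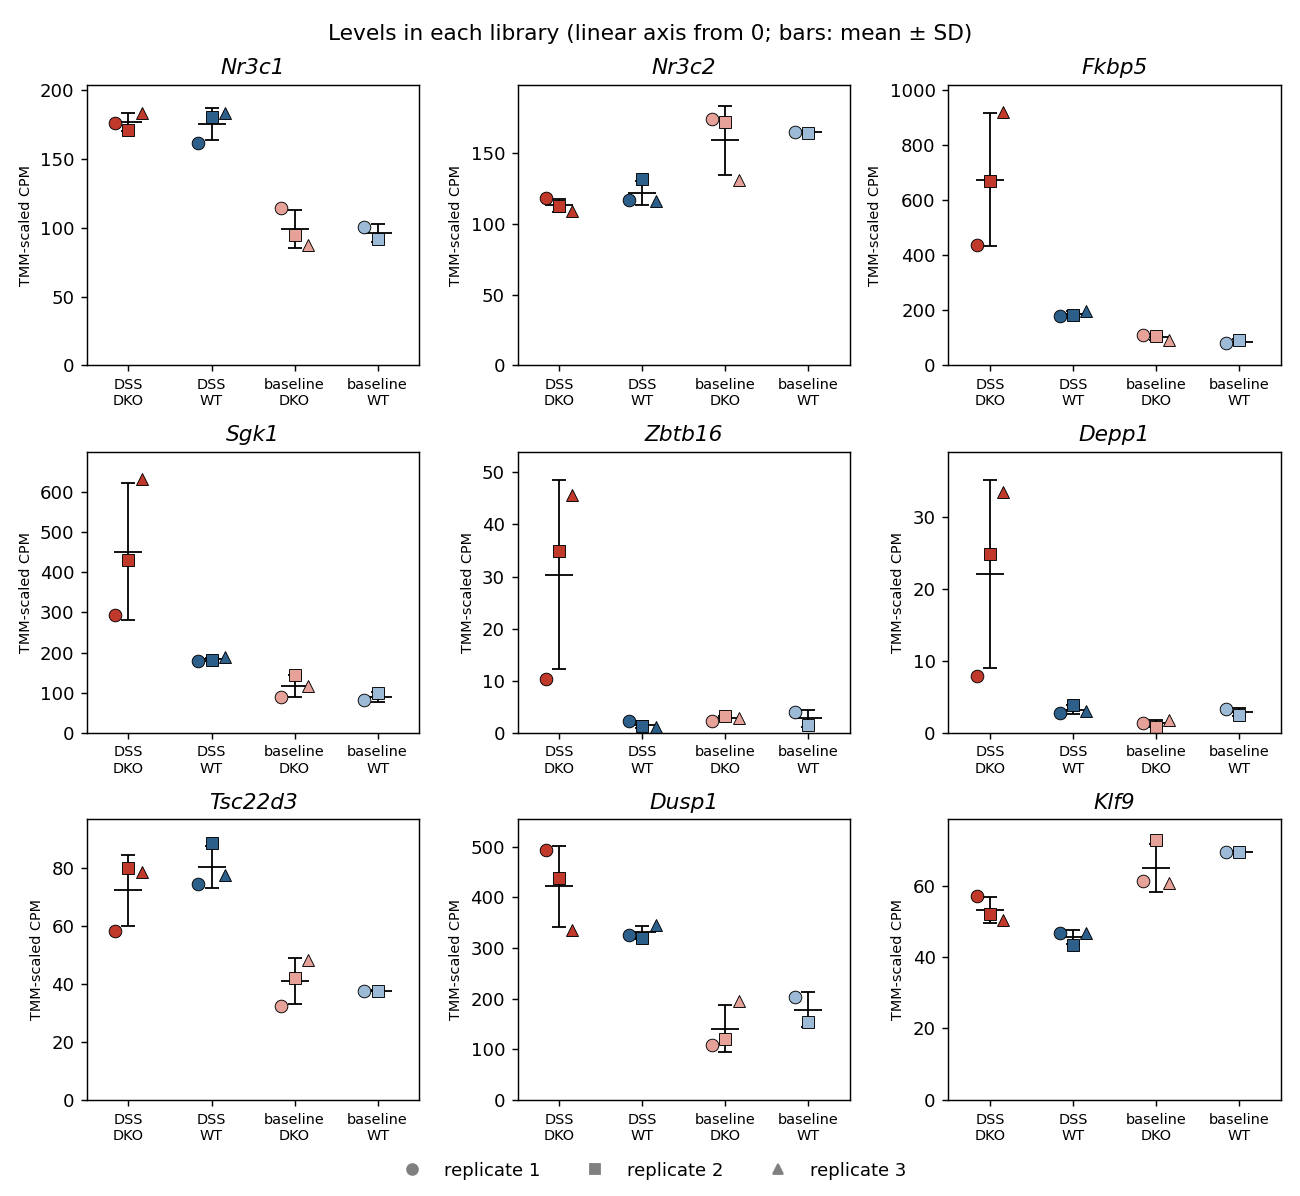
TMM-scaled CPM of each of the 9 genes in each library (points; circle, square and triangle are replicates 1, 2 and 3), with the mean ± SD of the group, on linear axes that start at 0. Zbtb16 averaged 30.3 ± 18.2 CPM in DSS DKO and 1.57 ± 0.625 CPM in DSS WT, Depp1 22.1 ± 13.0 and 3.19 ± 0.607, Fkbp5 676 ± 241 and 188 ± 10.2, and Sgk1 452 ± 171 and 183 ± 4.43 in the same groups (SD, n = 3 each).

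The other 3 responsive genes did not share that pattern. Tsc22d3 (chromosome X, bases 140539528 to 140600659, minus strand) encodes GILZ, an anti-inflammatory leucine zipper protein induced by glucocorticoids. It had 58.2, 80.2 and 78.8 CPM in DSS DKO and 74.7, 88.6 and 77.8 CPM in DSS WT, against 32.6, 42.1 and 48.3 CPM in baseline DKO and 37.5 and 37.8 CPM in baseline WT. The genotypes overlapped after DSS (log2 fold change -0.15 ± 0.16, not tested), and all DSS libraries were above all baseline libraries. The gene is X-linked, and sex differed with DSS.

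Dusp1 (chromosome 17, bases 26505590 to 26562128, minus strand), a phosphatase that switches off MAP kinases and is also an immediate early gene, had 493, 438 and 335 CPM in DSS DKO and 326, 320 and 345 CPM in DSS WT. At baseline it had 108, 120 and 194 CPM in DKO and 203 and 154 CPM in WT. After DSS, replicate 3 of DKO lay within the WT range (log2 fold change 0.35 ± 0.21, not tested). Per kilobase it was the highest of the 9 genes in all 4 groups, with 127 CPM per kb in DSS DKO and 99.8 CPM per kb in DSS WT, whereas Zbtb16 was the lowest in all 4, with 5.74 and 0.298 CPM per kb in the same groups.

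Klf9 (chromosome 19, bases 23141226 to 23168134, plus strand), a zinc finger repressor induced by glucocorticoids, had 57.1, 52.0 and 50.3 CPM in DSS DKO and 46.7, 43.4 and 46.6 CPM in DSS WT. At baseline it had 61.3, 72.6 and 60.7 CPM in DKO and 69.3 and 69.5 CPM in WT. The DSS DKO libraries lay above the DSS WT libraries by a small margin (1.17-fold, log2 0.22 ± 0.11, not tested) and below all baseline libraries.

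Between DKO and WT after DSS, 5 of the 9 genes (Zbtb16, Depp1, Fkbp5, Sgk1 and Klf9) had every DKO library above every WT library and 0 had every DKO library below. Over all 19267 genes, 14.0% had every DKO library above and 17.9% every DKO library below. Since this contrast chose the genes, nothing is read from their count. The median log2 fold change of the 9 genes was 0.35, beside 0.03 over all genes. The remaining values were 0.01 ± 0.11 for Nr3c1 and -0.11 ± 0.12 for Nr3c2. Over 18 other settings, the value of Zbtb16 stayed between 3.85 and 4.68, Depp1 between 2.36 and 3.19, Fkbp5 between 1.56 and 2.08 and Sgk1 between 0.99 and 1.54, while that of Nr3c1 lay on both sides of 0 (-0.03 to 0.05).

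At baseline, where no value had been used to choose the genes, 0 of the 9 differed between DKO and WT by edgeR's quasi-likelihood test, at an adjusted p or at an unadjusted p under 0.05. Over all genes 0.0260% passed at an adjusted p under 0.05, and 751 of 19267 had an unadjusted p under 0.05. Zbtb16 averaged 2.75 ± 0.452 CPM in DKO (SD, n = 3) and 2.74 ± 1.64 CPM in WT (n = 2), a log2 fold change of 0.01 with a 95% interval of -1.35 to 1.36. Fkbp5 had a log2 fold change of 0.25 (interval -0.26 to 0.76) and Sgk1 of 0.38 (-0.24 to 1.00). The intervals for the receptors were narrower, -0.24 to 0.32 for Nr3c1 and -0.34 to 0.24 for Nr3c2. These intervals leave room for differences of the sizes they span, and for Zbtb16 that is more than 2-fold in either direction. Depp1 had the largest difference of the 9 (log2 fold change -1.09 ± 0.52, interval -2.25 to 0.07, unadjusted p = 0.0624, adjusted p = 1), with no overlap between genotypes; with no filter on low counts its adjusted p was 0.0472, and over 18 other settings it ranged from 0.0472 to 1. By DESeq2's Wald test 0 of the 9 passed as well.

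**Figure D3:**
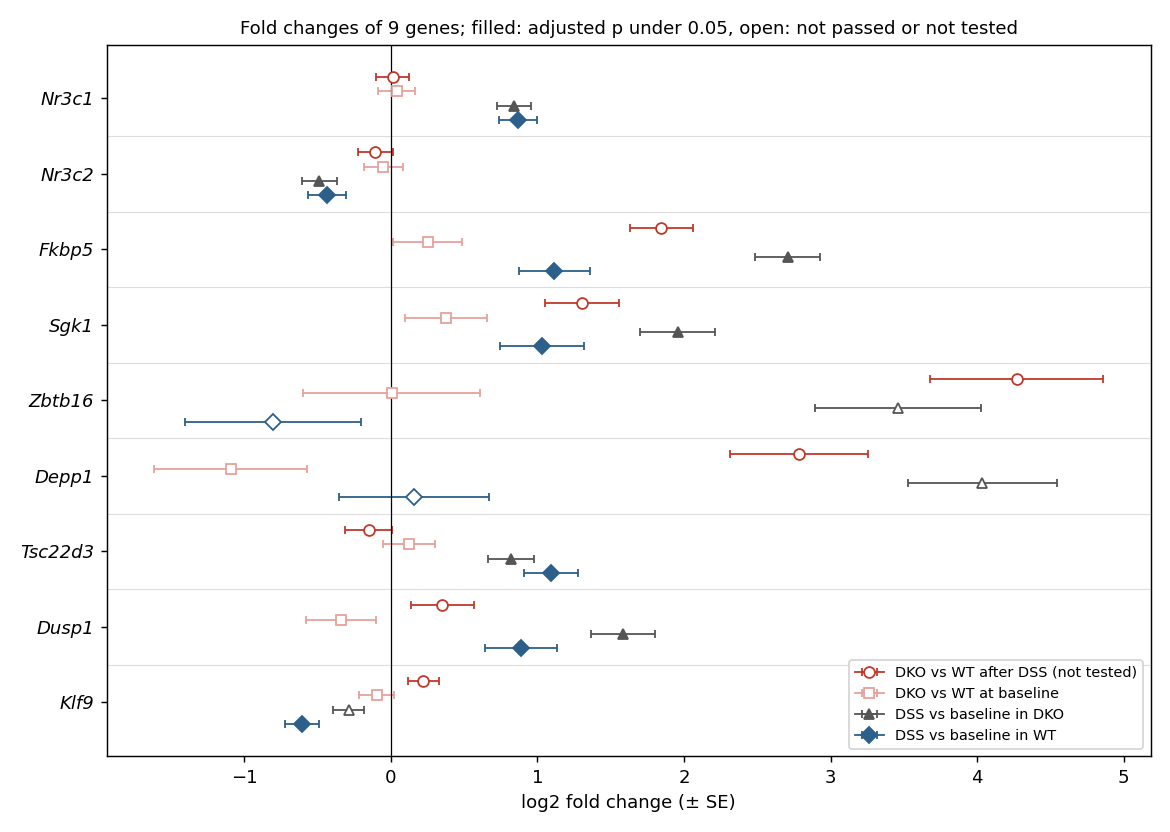
Log2 fold change ± SE of the 9 genes in 4 comparisons; filled symbols passed an adjusted p under 0.05 by edgeR's quasi-likelihood test, and open symbols did not pass or were not tested. Zbtb16 and Depp1 stand at 4.27 and 2.79 for DKO against WT after DSS and at 0.01 and -1.09 in the same contrast at baseline.

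The change with DSS could be tested for the 7 genes other than Zbtb16 and Depp1, with the reservation on sex. In DKO, 5 of the 7 rose, 1 fell and 1 did not pass; over all 19267 genes 12.6% rose and 2115 genes fell. Fkbp5 rose 6.54-fold (log2 2.71 ± 0.22, adjusted p = 2.54e-05), Sgk1 3.88-fold (1.96 ± 0.26, adjusted p = 0.000673) and Dusp1 3.00-fold (1.58 ± 0.22, adjusted p = 0.000726). Tsc22d3 rose less (0.82 ± 0.16, adjusted p = 0.00402), and the receptors are given above. Klf9, at -0.29 ± 0.11 (adjusted p = 0.0665), did not pass, but did with a minimum count of 50 (0.0412), with Rn18s-rs5 left out of the scaling (0.0495), by DESeq2 (0.0368) and without DSS DKO replicate 1 (0.0378).

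In WT, 5 of the 7 rose and 2 fell, against 16.9% and 16.5% of all genes. Fkbp5 rose 2.17-fold (log2 1.12 ± 0.24, adjusted p = 0.00555), Tsc22d3 2.14-fold (1.09 ± 0.18, adjusted p = 0.00144), Sgk1 2.04-fold (1.03 ± 0.29, adjusted p = 0.0197) and Dusp1 1.85-fold (0.89 ± 0.25, adjusted p = 0.0175). Klf9 fell by 0.61 ± 0.12 on the log2 scale (adjusted p = 0.00284), as did Nr3c2 by the value above. With only 2 baseline WT libraries, some of these calls rest on 1 library. That of Fkbp5 was lost without baseline WT replicate 1 (adjusted p = 0.0673), that of Sgk1 without baseline WT replicate 1 (0.156) or 2 (0.0623) or DSS WT replicate 3 (0.0501), and that of Dusp1 without baseline WT replicate 2 (0.129) or DSS WT replicate 3 (0.0527). Those of Tsc22d3, Klf9 and Nr3c1 held in all 18 other settings.

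Zbtb16 and Depp1 are described for the same contrast without a test. The log2 difference between DSS and baseline was 3.46 ± 0.57 in DKO and -0.80 ± 0.60 in WT for Zbtb16. It was 4.04 ± 0.51 in DKO and 0.16 ± 0.51 in WT for Depp1. The WT value of Zbtb16 was 0.00 without baseline WT replicate 1, the library with 3.90 CPM. The difference between the genotypes in the log2 change with DSS was 4.26 for Zbtb16, 3.88 for Depp1, 1.59 for Fkbp5, 0.93 for Sgk1, 0.69 for Dusp1 and 0.32 for Klf9. It was -0.03 for Nr3c1, -0.05 for Nr3c2 and -0.27 for Tsc22d3. These values contain the contrast that chose the genes and were not tested.

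The genes whose log2 CPM was most like each of the 9 over the 11 libraries were named by Pearson's r, as a description without a test. Zbtb16 was most like Slc9a3 (0.975), which encodes the apical sodium-proton exchanger NHE3, and Creb3l3 (0.967), a transcription factor of lipid metabolism. Depp1 was most like Casp12 (0.979), and Fkbp5 most like Pde9a (0.988) and Gcnt4 (0.988), with Nr1h4, the bile acid receptor FXR, next (0.986). Dusp1 was most like Ccn1 (0.975) and the immediate early gene Atf3 (0.970), and Tsc22d3 most like Mynn (0.973). Klf9 was most like Hdac10 (0.984), Nr3c1 most like Dcp2 (0.992) and Nr3c2 most like Trpm6 (0.948), a magnesium channel of the colon. All 11 libraries share the same 4 groups and one scaling.

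Other genes of the pathway were read in lists drawn from general knowledge, with earlier results of these data known, and are tested over all genes. The tests are of single genes. For that reason the count and the median of a list only describe it and are no test of the list. Of 26 measured genes that glucocorticoids are known to induce, 9 were higher in DSS DKO than in DSS WT, 1 was lower and 16 did not pass. Over all genes 5.26% were higher and 5.98% lower. The median log2 fold change of the list was 0.57, beside 0.03 over all genes. Tat, an enzyme of tyrosine breakdown and a classical glucocorticoid target of the liver, had 50.3, 51.8 and 48.4 CPM in DSS DKO and 18.0, 24.1 and 24.7 CPM in DSS WT (log2 1.17 ± 0.17, adjusted p = 0.00213). Crispld2, a secreted protein, had 1.18, 6.16 and 6.71 CPM in DSS DKO and 0.196, 0.186 and 0.367 CPM in DSS WT (4.21 ± 0.64, adjusted p = 0.00279). Neither pair of groups overlapped, and DSS DKO replicate 1 was far below replicates 2 and 3 for Crispld2, as it was for Zbtb16. Hif3a (2.06 ± 0.34, adjusted p = 0.00406) and the metallothionein gene Mt1 (1.61 ± 0.25, adjusted p = 0.00407) were also higher; these 4 kept their call in all 18 other settings. Glul, glutamine synthetase, was the lower gene (-0.38 ± 0.10, adjusted p = 0.0348). The 9 were 5 when either DSS DKO replicate 2 or DSS WT replicate 3 was left out, and the call of Glul was lost without any 1 of DSS DKO replicates 1 and 2 and DSS WT replicates 1, 2 and 3, or with the DSS libraries alone.

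Not every classical target was among them. The clock gene Per1, a direct target of the receptor in many tissues, had 34.6, 23.6 and 12.0 CPM in DSS DKO and 15.7, 8.03 and 7.94 CPM in DSS WT, and the groups overlapped. Its log2 fold change of 1.15 did not pass (adjusted p = 0.112). From baseline, 15 of the 26 genes rose and 5 fell in DKO, and 7 rose and 5 fell in WT. Among all 19267 genes, 12.6% rose and 2115 genes fell in DKO, and 16.9% rose and 16.5% fell in WT. The 7 were 4 without baseline WT replicate 1 or DSS WT replicate 2 and 3 without baseline WT replicate 2. Errfi1, which restrains EGF receptor signalling, rose in both (log2 1.34 ± 0.16 in DKO, adjusted p = 0.000248, and 1.44 ± 0.18 in WT, adjusted p = 0.00037), and Cdkn1a, a cell cycle inhibitor, fell in both (-0.71 ± 0.10, adjusted p = 0.000563, and -1.04 ± 0.11, adjusted p = 0.000131).

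Of 15 measured genes that glucocorticoids are known to repress, 4 were higher in DSS DKO than in DSS WT and 0 lower. The shares of all genes were 5.26% and 5.98%. The list had a median log2 fold change of 0.80. The neutrophil chemokine gene Cxcl1 had 4.42, 5.55 and 6.17 CPM in DSS DKO and 0.980, 1.96 and 2.50 CPM in DSS WT (log2 1.57 ± 0.32, adjusted p = 0.0109), and its call was lost without DSS DKO replicate 2 (0.0502). Cxcl5, another neutrophil chemokine, was higher by 2.91 ± 0.57 (adjusted p = 0.0115; 0.0529 without DSS WT replicate 3). Mmp13, a collagenase (4.15 ± 0.98, adjusted p = 0.0281), and the cytokine gene Il11 (4.23 ± 1.18, adjusted p = 0.0487) lost their calls in 6 and 9 of 18 other settings. The count of 4 was 1 without DSS DKO replicate 2 or DSS WT replicate 3, 2 without DSS WT replicate 2 and 7 with no filter on low counts. From baseline, 11 of the 15 rose and 0 fell in DKO, and 5 rose and 0 fell in WT. In the same contrasts 12.6% of all 19267 genes rose and 2115 fell in DKO, and 16.9% rose and 16.5% fell in WT. Of the neutrophil markers 4 of 6 were higher in DSS DKO than in DSS WT, and of the fibroblast and smooth muscle markers 3 of 7 (Dcn, Pdgfra and Col3a1), as given above; their part in these values was not tested.

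**Figure D4:**
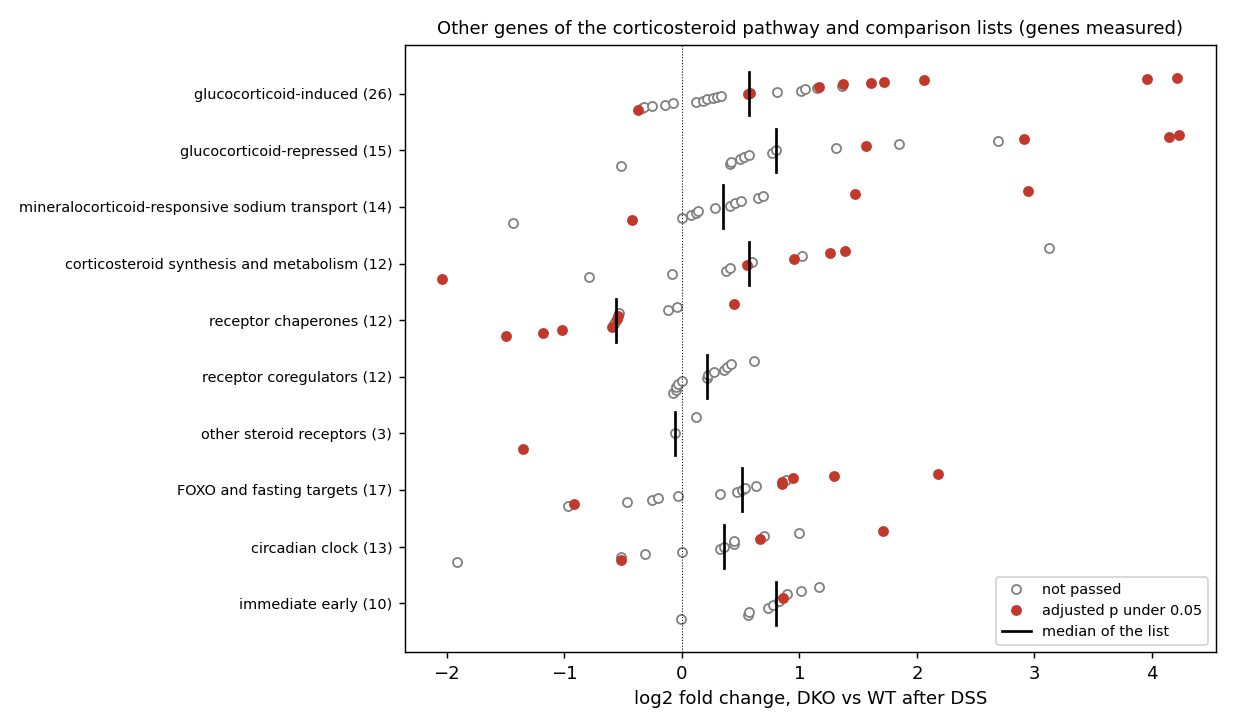
Log2 fold change of DKO against WT after DSS for each measured gene of 10 lists (points; filled red, adjusted p under 0.05 by edgeR's quasi-likelihood test), with the median of each list (black bar). Filled points in the chaperone list are 6 lower and 1 higher of 12 genes, and in the glucocorticoid-induced list 9 higher and 1 lower of 26; open points lie on both sides of 0 in the glucocorticoid-induced list and below 0 in the chaperone list.

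The list of chaperones that hold the receptor ready for hormone had 12 measured genes. Of these, 6 were lower in DSS DKO than in DSS WT (5.98% of all genes) and 1 was higher (5.26%). The other 5 did not pass, and the list's median was -0.56 (log2). Hsp90aa1, the inducible HSP90, had 356, 313 and 185 CPM in DSS DKO and 772, 899 and 734 CPM in DSS WT (-1.49 ± 0.21, adjusted p = 0.0017). Fkbp4, the immunophilin that exchanges with FKBP5 in the complex and favours nuclear transport, had 415, 277 and 233 CPM in DSS DKO and 712, 576 and 585 CPM in DSS WT (-1.02 ± 0.19, adjusted p = 0.00684). Every DKO library lay below every WT library for both genes. Stip1, the HSP70 to HSP90 adaptor (-1.18 ± 0.20, adjusted p = 0.00444), and Hsp90ab1, the constitutive HSP90 (-0.60 ± 0.11, adjusted p = 0.00704), were lower as well, and these 4 genes kept their calls in all 18 other settings. Ppid (-0.54 ± 0.12, adjusted p = 0.0157) and Hspa8 (-0.55 ± 0.15, adjusted p = 0.0348) completed the 6 but lost their calls in 3 and 7 of 18 other settings; the number of the 6 ranged from 4 to 8 when each library was left out in turn. The ubiquitin ligase gene Stub1 was the higher one (0.44 ± 0.10, adjusted p = 0.0197), a call lost with no filter on low counts and without DSS DKO replicate 3 or DSS WT replicate 2 or 3.

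Part of the list rose with DSS in each genotype. Among all 19267 genes, 12.6% rose with DSS and 2115 genes fell in DKO, and 16.9% rose and 16.5% fell in WT. In DKO 5 of the 12 rose and 1 fell, the call of the 1 being lost without any 1 of baseline DKO replicate 3, DSS DKO replicates 1 and 2 and DSS WT replicates 2 and 3, and in WT 10 rose and 0 fell; the 5 were 3 without any 1 of baseline DKO replicates 1 and 2, baseline WT replicates 1 and 2 and DSS DKO replicate 2. Hsp90aa1 rose by 2.28 ± 0.25 on the log2 scale in WT (adjusted p = 0.000189). In DKO its log2 difference was 0.64 ± 0.20 (adjusted p = 0.0396), a call lost in 11 of 18 other settings, including without any 1 of 8 libraries (the exceptions being DSS DKO replicate 3 and DSS WT replicates 1 and 2; adjusted p up to 0.142). The gene had been at 182, 161 and 206 CPM in baseline DKO and 157 and 173 CPM in baseline WT. Fkbp4 had 279, 269 and 322 CPM in baseline DKO and 221 and 264 CPM in baseline WT, and rose in WT (1.37 ± 0.22, adjusted p = 0.00117) but did not pass in DKO. The genotypes differed in their change with DSS for Hsp90aa1 (-1.64 ± 0.31, adjusted p = 0.0268), Stip1 (-1.52 ± 0.30, adjusted p = 0.0317) and Fkbp4 (-1.28 ± 0.29, adjusted p = 0.0495), where 1.57% of all genes did. All 3 calls were lost without any 1 of baseline DKO replicates 1 and 3, baseline WT replicates 1 and 2, DSS DKO replicate 2 and DSS WT replicates 2 and 3. Those of Stip1 and Fkbp4 were also lost without baseline DKO replicate 2 or DSS WT replicate 1, and that of Fkbp4 with Rn18s-rs5 left out of the scaling.

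**Figure D5:**
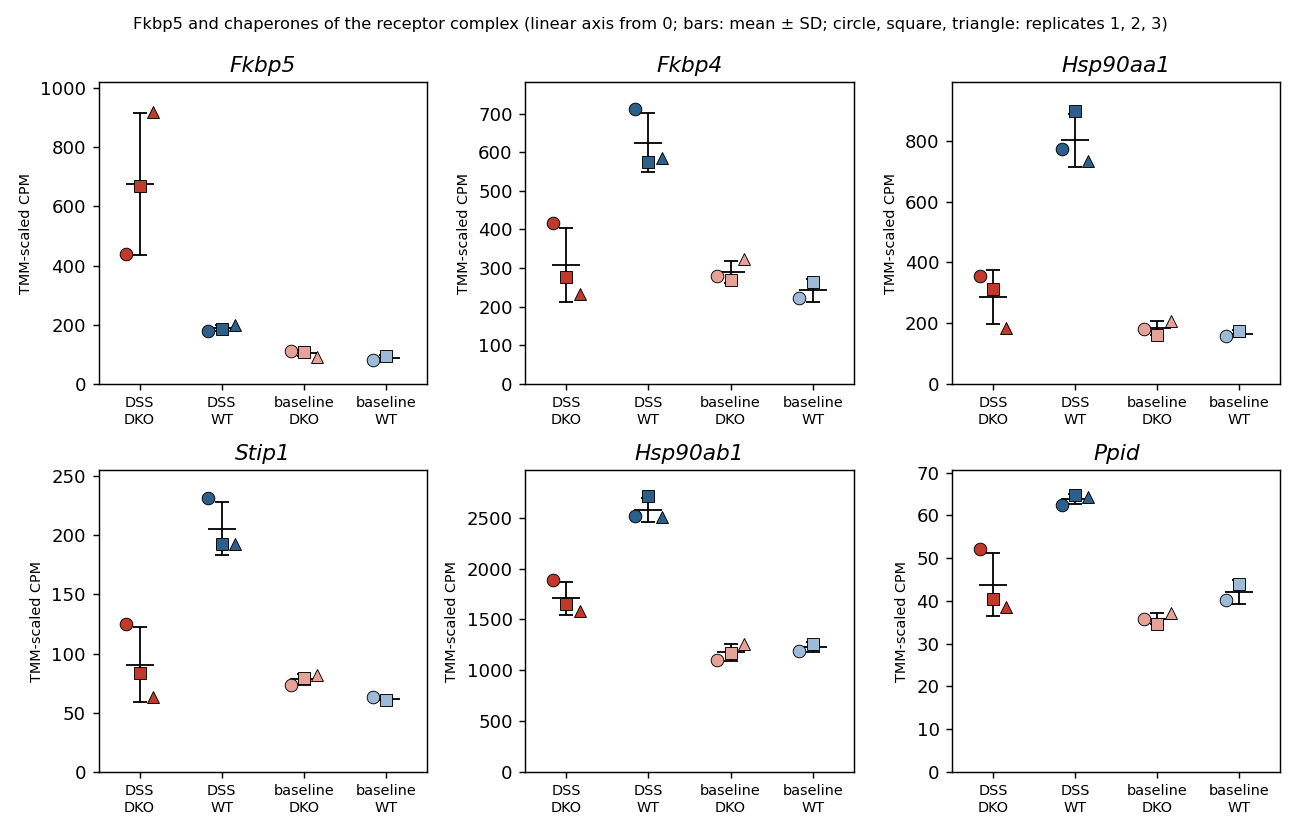
TMM-scaled CPM of Fkbp5 and 5 chaperones of the receptor complex in each library (points), with the mean ± SD of the group, on linear axes that start at 0. Fkbp5 is highest in the 3 DSS DKO libraries (438 to 920 CPM), whereas Fkbp4, Hsp90aa1 and Stip1 are highest in the 3 DSS WT libraries.

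Of 14 measured genes of mineralocorticoid-responsive sodium transport, 2 were higher in DSS DKO than in DSS WT, 1 was lower and 11 did not pass. Higher genes were 5.26% of all genes and lower ones 5.98%. Slc9a3 had 751, 985 and 1529 CPM in DSS DKO and 156, 128 and 139 CPM in DSS WT (log2 2.95 ± 0.23, adjusted p = 0.00011). Scnn1b, which encodes the beta chain of the epithelial sodium channel, had 13.5, 19.3 and 21.6 CPM in DSS DKO and 5.45, 7.14 and 6.94 CPM in DSS WT (1.48 ± 0.19, adjusted p = 0.000971). Both were lowest in DSS DKO replicate 1, as Sgk1 was, and both kept their calls in all 18 other settings. The kinase gene Stk39 was lower (-0.42 ± 0.11, adjusted p = 0.0348), a call lost without DSS DKO replicate 2 or DSS WT replicate 2 or 3. The count of 2 was 4 without DSS DKO replicate 1. Scnn1a, the channel's alpha subunit and an aldosterone target in kidney, had 40.4, 24.9 and 15.7 CPM in DSS DKO and 33.4, 12.0 and 13.8 CPM in DSS WT, with overlap. From baseline Scnn1a fell in DKO (-2.34 ± 0.43, adjusted p = 0.00508) and in WT (-2.77 ± 0.46, adjusted p = 0.00256), and Scnn1b fell in WT (-0.91 ± 0.20, adjusted p = 0.0056). Altogether 2 of the 14 rose and 3 fell in DKO (12.6% of all 19267 genes rose and 2115 fell), and 1 rose and 3 fell in WT (16.9% and 16.5% of all genes). The 2 were 1 without any 1 of baseline DKO replicates 1 and 3, DSS DKO replicate 3 and DSS WT replicates 2 and 3. The 1 that rose in WT was 0 without baseline WT replicate 1 and 2 without DSS DKO replicate 3.

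Of 12 measured genes of corticosteroid synthesis, inactivation and export, 4 were higher in DSS DKO than in DSS WT and 1 was lower. The shares of all genes were 5.26% and 5.98%. Cyp3a13, of a cytochrome family that hydroxylates steroids, had 161, 257 and 270 CPM in DSS DKO and 102, 94.3 and 91.1 CPM in DSS WT (log2 1.26 ± 0.18, adjusted p = 0.00209, kept in all 18 other settings). Nr5a2, which drives steroid synthesis in the gut (0.55 ± 0.13, adjusted p = 0.02), and the exporter gene Abcb1a (0.95 ± 0.25, adjusted p = 0.0322) were higher but lost their calls in 5 and 9 of 18 settings. Cyp11a1, the first enzyme of steroid synthesis, was the lower gene (-2.04 ± 0.56, adjusted p = 0.0371), at 0.130, 0.0810 and 0.136 CPM in DSS DKO and 0.353, 0.839 and 0.257 CPM in DSS WT, and lost its call in 9 of the 17 settings that gave a value. Hsd11b2 had 171, 174 and 149 CPM in DSS DKO and 140, 86.2 and 101 CPM in DSS WT, without overlap, and did not pass (0.59, adjusted p = 0.0727). The count of 4 was 8 by DESeq2, 2 without DSS DKO replicate 3, and 1 when DSS DKO replicate 2 or either of DSS WT replicates 2 and 3 was left out. From baseline 5 of the 12 rose and 1 fell in DKO, and 1 rose and 1 fell in WT. In the same contrasts 12.6% of all 19267 genes rose and 2115 fell in DKO, and 16.9% rose and 16.5% fell in WT. The 5 were 3 without baseline DKO replicate 1, DSS DKO replicate 2 or 3, or DSS WT replicate 2. The 1 that fell in DKO was lost without any 1 of the libraries other than DSS DKO replicate 3 and DSS WT replicate 1. The 1 that rose in WT was lost without baseline DKO replicate 1, either baseline WT library or any 1 of the DSS WT libraries, and the 1 that fell in WT was 2 without DSS DKO replicate 1 or DSS WT replicate 1.

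Of 12 receptor coregulators, 0 passed between DKO and WT after DSS by edgeR, with 2 at an unadjusted p under 0.05 and 1 called higher by DESeq2. By edgeR 5.26% of all genes were higher and 5.98% lower, and 5148 of all 19267 genes had an unadjusted p under 0.05. With DSS, 3 rose and 3 fell in DKO, where 12.6% of all 19267 genes rose and 2115 fell, and 1 rose and 4 fell in WT, where 16.9% rose and 16.5% fell. In DKO the 3 that rose were 1 without baseline DKO replicate 3 or DSS DKO replicate 3. The 3 that fell there were 0 without baseline DKO replicate 2 or DSS DKO replicate 2, 1 without baseline DKO replicate 1 or DSS DKO replicate 3. They were 5 when DSS DKO replicate 1 was left out. In WT the 1 was 0 without either baseline WT library, and the 4 were 2 without baseline WT replicate 1. Nrip1, a corepressor of nuclear receptors, rose in DKO (0.63 ± 0.12, adjusted p = 0.004) and in WT (0.53 ± 0.14, adjusted p = 0.0132), the WT call being lost in 2 of 18 settings. Of 3 measured receptors for other steroids, Esr2 was lower in DSS DKO than in DSS WT (-1.35 ± 0.36, adjusted p = 0.0335), at 1.28, 0.486 and 0.431 CPM in DSS DKO and 1.76, 1.85 and 2.06 CPM in DSS WT. That call was lost without any 1 of DSS DKO replicates 2 and 3 and DSS WT replicates 1, 2 and 3.

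Depp1 is a known FOXO target, Klf9 and Per1 are tied to the circadian clock, and Dusp1 is an immediate early gene, so lists of these kinds were read as well. In this contrast of DKO and WT after DSS, 5.26% of all genes were higher and 5.98% lower. Of 17 FOXO and fasting targets, 5 were higher and 1 lower in DSS DKO than in DSS WT. Sesn3 was lower (log2 -0.92 ± 0.13, adjusted p = 0.00194) and Bnip3 higher (0.85 ± 0.16, adjusted p = 0.00787), and both kept their calls in all 18 other settings. The count of 5 was 2 without DSS DKO replicate 2 or DSS WT replicate 2, 1 without DSS WT replicate 3 and 8 by DESeq2. Of 13 clock genes 2 were higher and 1 lower, led by the repressor gene Nr1d1 (1.71 ± 0.18, adjusted p = 0.000575), at 8.46, 9.78 and 11.9 CPM in DSS DKO and 3.78, 2.70 and 2.73 CPM in DSS WT; the count of 2 was 1 without baseline WT replicate 1 or 2, DSS DKO replicate 2 or DSS WT replicate 2 or 3, and 4 without DSS WT replicate 1. Nr1d1 was at 83.9, 77.4 and 61.3 CPM in baseline DKO and 96.7 and 82.3 CPM in baseline WT, far above both DSS groups. Of 10 immediate early genes, which share their fast induction with Dusp1, Zfp36 alone was higher (0.86 ± 0.23, adjusted p = 0.0385), and that call was lost in 10 of 18 settings. The count of 1 was 8 without DSS DKO replicate 3, 4 without DSS WT replicate 1 or by DESeq2, 9 with no filter on low counts, and 0 without any 1 of the other 9 libraries or with the DSS libraries alone. At baseline 0 genes of any of the 10 lists passed between DKO and WT by edgeR, where 5 of all 19267 genes (0.0260%) passed. With no filter on low counts 1 listed gene passed, in the glucocorticoid-repressed list.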

How the data were processed

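Messenger RNA of Percoll-enriched colonic epithelial cells was enriched with oligo(dT) and sequenced, per the labels' protocols. STAR and the build mm10 were used, per the submitters' processing notes. For the aligner's version, the counter, its annotation and its use of strand, nothing is given in the labels or notes used here. Reads of overlapping or antisense genes therefore cannot be told apart. The authors deposited raw counts per gene in 1 table with 1 column per library, and all 11 columns were matched to samples by name.

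The counts were modelled with edgeR 4.0.16 (R 4.3.3), after filterByExpr at a minimum count of 10 and TMM scaling. The quasi-likelihood fit, with the robust option and 1 mean for each of 4 groups, used all 11 libraries (common biological coefficient of variation 0.234). Tests were two-sided F-tests with Benjamini-Hochberg adjustment over 19267 genes, called at an adjusted p under 0.05. A standard error is the absolute log2 fold change over the root of F. Replicates of a group differed by more than sampling noise (chi-square per degree of freedom 14.4 to 788). The statistic pools all genes, and abundant ones such as Rn18s-rs5 weigh most in it. Its highest values, 233 to 788, were those of the baseline DKO pairs. It therefore does not give the spread of a typical gene beside its counting error, which matters most for genes with few counts. The pipeline was tested on simulated counts.

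The 9 genes, the 10 pathway lists and the 10 marker lists were chosen with earlier results of these data known. Zbtb16 and Depp1 were not tested in DSS libraries, and none of the 9 was tested for DKO against WT after DSS or for the interaction. Genes were named by rule: the 9 genes, up to 4 called genes per list and comparison with the lowest adjusted p, and the 3 genes most alike to each of the 9 (mean log2 CPM of at least 1, prior count 2). Outside the rule, and chosen after their values were seen, are Per1, Hsd11b2, Ppid and Stub1, the values of Glul, Hspa8 and Scnn1a for DKO against WT after DSS, the change of Hsp90aa1 with DSS in DKO and that of Fkbp4 in WT. Not every gene within the rule is described.

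Positions, exon lengths and 3' UTRs are from GENCODE M21 on GRCm38. Alternatives were DESeq2 size factors, TMM without Rn18s-rs5, no filter, a minimum count of 50, DESeq2 1.42.0, the libraries of a comparison alone, a replicate block and leaving out each library.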

Additional observations from a re-analysis of the deposited data

Results flagged for a closer look

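By the test of the interaction in edgeR's quasi-likelihood model, 1.57% of all 19267 genes differed between DKO and WT in their log2 change with DSS. Of the pathway genes outside the 9, 12 did. The differences (DKO minus WT) were positive for Slc9a3 (2.95, adjusted p = 0.0043), Nr1d1 (1.98, adjusted p = 0.0106), Scnn1b (1.44, adjusted p = 0.0268), Tat (1.28, adjusted p = 0.0304), Cyp3a13 (1.36, adjusted p = 0.0312), Hif3a (2.47, adjusted p = 0.0317), Crispld2 (4.79, adjusted p = 0.0331), Mt1 (1.85, adjusted p = 0.0384) and Cxcl1 (2.63, adjusted p = 0.0417). They were negative for Hsp90aa1 (-1.64, adjusted p = 0.0268), Stip1 (-1.52, adjusted p = 0.0317) and Fkbp4 (-1.28, adjusted p = 0.0495).

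All 12 kept their direction in each of 17 other settings, but few calls held when a library was left out. Of the 12, 0 passed without baseline WT replicate 1. Slc9a3 and Nr1d1 alone passed without baseline DKO replicate 1 or 3, baseline WT replicate 2, DSS DKO replicate 2, or DSS WT replicate 2 or 3, and 4 passed without baseline DKO replicate 2. Without DSS WT replicate 1, DSS DKO replicate 3 or DSS DKO replicate 1, 9, 11 and 12 of the 12 passed. Sex-linked genes differed between DSS and baseline in both genotypes, as given above.

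Depp1 was higher in every DKO library than in every WT library after DSS (log2 fold change 2.79) and lower in every DKO library at baseline (-1.09). The difference between the 2 was not tested, because the DSS libraries were used to choose Depp1.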

How the results depend on the processing

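The count of genes called between DKO and WT after DSS was 2165, against 1372 with the DSS libraries alone and 691 to 3064 when each library was left out in turn. At baseline it was 5, against 79 with no filter, 20 by DESeq2 and 1 to 5 when a library was left out, and 1 of the 9 genes (Depp1) passed as lower with no filter. For DSS against baseline it was 4545 in DKO (2605 to 5788 with a library left out) and 6432 in WT (2775 to 7378). Of the 7 genes tested for DSS against baseline, 1 fell in DKO. The count was 2 with Rn18s-rs5 left out of the scaling, with a minimum count of 50 or by DESeq2. With a library left out, 0 to 2 fell in DKO, and in WT 3 to 5 rose and 1 to 2 fell. The interaction gave 302 genes, against 1469 with no filter, 1375 by DESeq2 and 2 to 1498 with a library left out, the 2 being without baseline WT replicate 1. The causes were not tested beyond the smaller number of libraries. The scaling alternatives moved the median of all genes by less than 0.1 (log2); with no filter it was -0.22 for DSS against baseline in WT. A group left with 1 library is assumed to vary like the others. Depth limits the precision of Crispld2, Cyp11a1, Esr2 and Il11, at a few CPM or less.

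The replicate numbers are not stated to mark shared litters or days, and of 15 same-numbered pairs 4 had a correlation of deviations over 0.1 (range -0.07 to 0.30). With replicate number as a block in the fit, 3 genes were called at baseline and 2 of 15 glucocorticoid-repressed genes were called higher in DSS DKO; 5 other list counts moved by over 1.5 times. No call of the 9 genes changed under the block.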
